A study of Mus musculus with 4 samples.

Results

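Nodal, Lefty and Activin signalling was followed through 9 genes of mouse embryonic stem cells (ESCs): the ligand *Nodal*, its co-receptor *Tdgf1*, the receptor *Acvr2b*, the signal transducers *Smad2* and *Smad3*, and *Lefty1*, *Lefty2*, *Smad7* and *Skil*, which are both targets and inhibitors of the pathway. The genes were chosen by name, to ask whether a lower *Lefty2* RNA level in *Zfp296* KO ESCs is shared by *Lefty1* and by other targets of SMAD2 and SMAD3. The study had already reported the lower *Lefty2* RNA from this sequencing, so it was known when the genes were chosen. All 9 symbols matched a row among the 48526 genes of the count files, and all 9 passed the filter on low counts that left 12883 genes.

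The WT group is labelled as R1, an established line of mouse ESCs, without editing. The KO2 group is described as *Zfp296* KO clone 2, a monoclonal line made from R1 ESCs by CRISPR/Cas9 editing in exon 1 of *Zfp296*, so any feature of this 1 clone cannot be told apart from the knockout. ZFP296 is a zinc finger protein that binds the chromatin remodelling complex NuRD. Both groups were grown on gelatine in serum medium with LIF and with the kinase inhibitors PD0325901 (against MEK) and CHIR99021 (against GSK3), and ribosomal RNA was depleted before strand-specific sequencing. Each group had 2 samples, which the labels call biological replicates.

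Nodal and Activin are secreted ligands of the TGF-β family. They bind type II receptors such as ACVR2B, which recruit and phosphorylate type I receptors, and Nodal in addition needs an EGF-CFC co-receptor such as TDGF1 (also called Cripto). The receptors phosphorylate SMAD2 and SMAD3, which enter the nucleus with SMAD4 and act on target genes. Among these targets are the secreted antagonists LEFTY1 and LEFTY2, which bind Nodal or its co-receptor and so close a negative feedback loop. The loop is known for its part in patterning the early embryo, and the same genes are transcribed in cultured ESCs.

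The WT samples held 2829914 and 4334499 counts on genes and the KO2 samples 7470907 and 7437294, so depth and genotype cannot be told apart. A count of 3 amounted to between 0.38 and 1.12 CPM, the count scaled to library size. The targeted gene *Zfp296* was counted 31 times in each WT sample and 416 and 282 times in the KO2 samples, a higher level in KO2 (log2 fold change 2.31 ± 0.28 SE, adjusted p = 4.545e-05). A small edit in an exon need not lower the RNA, so these counts do not check the knockout. Why the RNA was higher was not tested. The KO clones are described as checked by mass spectrometry of their proteins, which is not part of these counts. For the KO lines in its chromatin profiling, the paper names a difference in ZFP296 depletion as a possible cause of variance. KO2 below means the libraries labelled so. The Y-linked gene *Ddx3y* had 0 and 1 counts in WT against 1979 and 2197 in KO2, and *Eif2s3y* and *Uty* were at 0 in both WT samples and had at least 723 counts in each KO2 sample, so the groups also differ in Y-linked RNA. A clone with a Y chromosome cannot come from cells without one, so the counts do not show that the WT cells as sequenced stand for the cells from which KO2 was made. How this difference arose, and its part in the results below, was not tested, and it cannot be told apart from the knockout. The 7 ESC markers in the files summed to between 4705 and 5120 CPM in all 4 samples, and 1 of them, *Sox2*, was called lower in KO2 (log2 fold change -0.79, adjusted p = 7.836e-05). Markers of primitive endoderm, trophoblast (without *Tfap2c*), mesoderm and fibroblasts, summed for each cell type apart, came to at most 5.22 CPM in any sample. Of these markers, *T*, *Mesp1* and *Postn* were at 0 in all 4 samples. The 3 trophoblast markers among these (*Cdx2*, *Elf5* and *Krt7*) summed to 0 and 0 CPM in WT and to 1.52 and 3.34 CPM in KO2. A further trophoblast marker, *Tfap2c*, is named *Tcfap2c* in the annotation and was left out of this sum. Its mean level was 90.1 CPM in WT and 135 CPM in KO2. It was called higher in KO2 (log2 fold change 0.59, edgeR adjusted p = 0.01207). Markers of epiblast ranged from 47.7 to 63.3 CPM, nearly all from *Otx2* with *Fgf5* at 0, and those of neuroectoderm were 97.6 and 86.7 CPM in WT and 115 and 121 CPM in KO2, nearly all from *Nes*. The part of these differences in the results below was not tested.

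*Lefty2* was the 1 member called between the groups. Its RNA was 4.2-fold lower in KO2, which was larger than the spread between replicates. The neighbouring *Lefty1* also had its KO2 values below its WT values, by less, and did not pass the test. Neither the ligand, the co-receptor and the receptor, nor SMAD2, SMAD3 and the inhibitors SMAD7 and SKIL, passed at the RNA level. In numbers, 1 of the 9 genes was called lower and 0 were called higher at an adjusted p under 0.05 (edgeR's quasi-likelihood test, Benjamini-Hochberg adjustment over all 12883 tested genes), where 5.64% of all tested genes were called, 3.04% lower and 2.61% higher. DESeq2 gave 1 lower and 0 higher as well. The lower *Lefty2* was known from these samples beforehand, so its call is no separate test. The other 8 members were not called. At an unadjusted p under 0.05 the count was 4 of 9, 2 lower and 2 higher, against 19.4% of all tested genes. The median log2 fold change (KO2 minus WT) of the 9 genes was 0.05, beside 0.01 for all tested genes. In bulk RNA, fewer cells that transcribe a gene and less RNA per cell cannot be told apart.

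**Figure D1:**
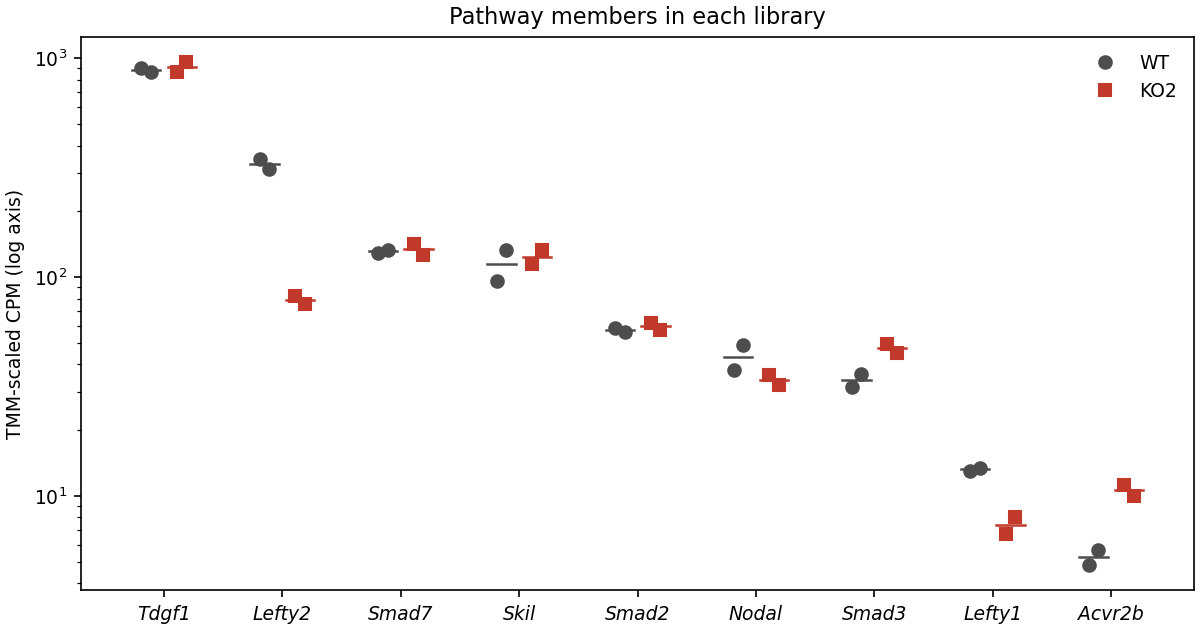
Level of each of the 9 genes in each sample, as TMM-scaled CPM on a log axis, with WT as grey circles, KO2 as red squares and the mean of the 2 replicates as a bar. *Lefty2* fell from 348 and 312 CPM in WT to 81.8 and 75.3 CPM in KO2, while the symbols of *Tdgf1*, *Smad7*, *Skil* and *Smad2* overlap between the groups.

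*Lefty1* and *Lefty2* lie side by side on chromosome 1 and are near copies of each other, which bears on how their reads can be counted. In the mm9 annotation (GENCODE, NCBIM37) *Lefty2* spans chr1:182823239-182829234 and *Lefty1* spans chr1:182865153-182868531, both on the plus strand, with 35.9 kb between them. Their coding sequences have 1107 bases each and align without a gap, and 1017 bases (91.9%) are identical, with a longest identical run of 140 bases. A pair of 60-base windows shows the range. The first, in exon 2 of 4 of each gene (coding bases 272 to 331; chr1:182824287-182824346 in *Lefty2* and chr1:182866699-182866758 in *Lefty1*, mm9, plus strand), is the same in both genes, so that a read lying within it cannot be assigned to either.
Lefty2: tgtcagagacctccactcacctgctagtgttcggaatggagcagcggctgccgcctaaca
Lefty1: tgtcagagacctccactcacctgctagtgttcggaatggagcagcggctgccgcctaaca
The second, in exon 1 of 4 (coding bases 34 to 93; chr1:182823348-182823407 in *Lefty2* and chr1:182865274-182865333 in *Lefty1*), is where they differ most, at 18 of 60 bases, which are printed in capitals.
Lefty2: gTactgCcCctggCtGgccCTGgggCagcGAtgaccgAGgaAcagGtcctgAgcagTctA
Lefty1: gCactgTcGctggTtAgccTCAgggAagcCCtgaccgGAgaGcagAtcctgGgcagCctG

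Of all exonic windows of 43 bases, 19.1% in *Lefty2* and 22.1% in *Lefty1* occur at more than 1 place in the mm9 genome. With windows of 75 bases the shares were 9.63% and 13.3%. *Tdgf1*, which has processed copies in the genome, had 28.8% and 13.3%, and the other 6 members had 0%. Reads that map to several places are set apart in the files, in a row that held between 35.6% and 40.4% of all counts of a sample. The counting options are not given, so this need not be a share of reads, and it covers the whole library. With such reads set apart, the counts of these 3 genes rest mainly on their unshared bases. The same bases are left out in every sample, so the comparison between groups does not depend on them in the way that a comparison between genes does.

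*Lefty2* (ENSMUSG00000066652) was counted 934 and 1319 times in the WT samples against 645 and 563 times in the KO2 samples, although the KO2 samples were the deeper ones. Scaled to CPM these were 348, 312, 81.8 and 75.3. Both WT values lay far above both KO2 values, and the groups did not overlap. The mean level fell from 330 ± 25.8 CPM to 78.5 ± 4.62 CPM (SD, n = 2 each), a log2 fold change of -2.07 with an SE of 0.12 and a 95% interval from -2.33 to -1.81. The edgeR adjusted p was 2.404e-09. Under 11 alternative settings the log2 fold change of *Lefty2* ranged from -2.15 to -1.98 and the adjusted p from 1.33e-47 to 0.00255, so the call did not depend on the scaling, the filter, the tool or any 1 sample.

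*Lefty1* (ENSMUSG00000038793) was counted far less often, with 35 and 57 counts in the WT samples against 53 and 60 in the KO2 samples. These amounted to 13.0, 13.5, 6.72 and 8.02 CPM. Both KO2 samples were below both WT samples, a separation that 48.8% of all tested genes showed in 1 direction or the other. The mean went from 13.3 ± 0.30 CPM to 7.37 ± 0.92 CPM (SD, n = 2 each) and the log2 fold change was -0.85 with an SE of 0.36. The 95% interval ran from -1.61 to -0.09, but the edgeR adjusted p over all genes was 0.1972, and it stayed between 0.177 and 0.668 under the alternatives. A lower *Lefty1* was therefore not called, and at this depth an interval that reaches from near 0 to a change of over 1 log2 unit does not show that *Lefty1* was unaffected.

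The ratio of *Lefty2* to *Lefty1* counts within a library needs no scaling between libraries, and it shows how unequally the pair stood in the 2 groups. There were 26.7 *Lefty2* counts for each *Lefty1* count in WT replicate 1 (95% interval 19.1 to 38.6) and 23.1 in WT replicate 2 (17.8 to 30.7). The ratio was 12.2 in KO2 replicate 1 (9.19 to 16.4) and 9.38 in KO2 replicate 2 (7.18 to 12.5). These exact binomial intervals cover counting error only, and those of the KO2 samples lay below those of the WT samples. On the log2 scale the ratio was 1.22 lower in KO2 (mean 4.64 in WT and 3.42 in KO2, a difference of -1.22). The exact two-sided permutation test gave p = 0.333, which is the smallest value that 2 against 2 samples can give, so the test could not pass a threshold of 0.05.

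**Figure D2:**
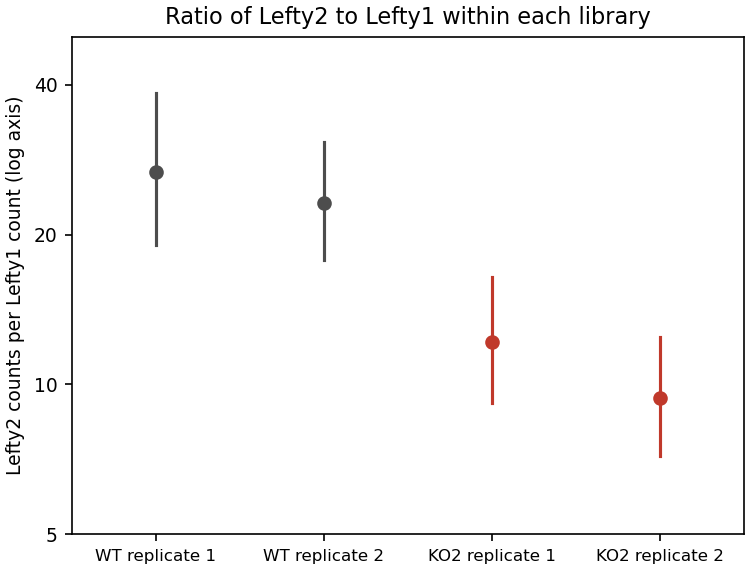
*Lefty2* counts per *Lefty1* count in each of the 4 libraries on a log axis, with exact binomial 95% intervals as lines. The WT libraries lie at 26.7 and 23.1 and the KO2 libraries at 12.2 and 9.38.

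The other genes of the locus were compared in the same way, to set their RNA beside that of *Lefty2*. The annotation places 15 further genes of the files within 250 kb of *Lefty1* or *Lefty2*. Of these, 11 were tested, and 0 were called by edgeR, beside 5.64% of all tested genes, with 1 at an unadjusted p under 0.05, beside 19.4%. With so few genes, counts of 0 and 1 do not set the neighbours apart from the rest of the tested genes. Their median log2 fold change was 0.14, with 7 positive and 4 negative values. On the *Lefty2* side, *BC031781* (0.14), *H3f3a* (0.16, a gene for histone H3.3), *Acbd3* (0.17) and *Lin9* (-0.04) had log2 fold changes close to 0, and *Gm16067*, which overlaps the 5′ end of *H3f3a* on the other strand, had 0.63 on at most 15 counts in any sample. On the *Lefty1* side the values were 0.42 for *Tmem63a*, 0.86 for *Ephx1*, -0.14 for *Nvl*, -0.20 for *Cnih4* and -0.30 for *Wdr26*. *Wdr26* was the gene with an unadjusted p under 0.05 (adjusted p = 0.1773). *Mixl1*, itself a Nodal target in the embryo, lies in the same stretch and had 3, 0, 3 and 2 counts.

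**Figure D3:**
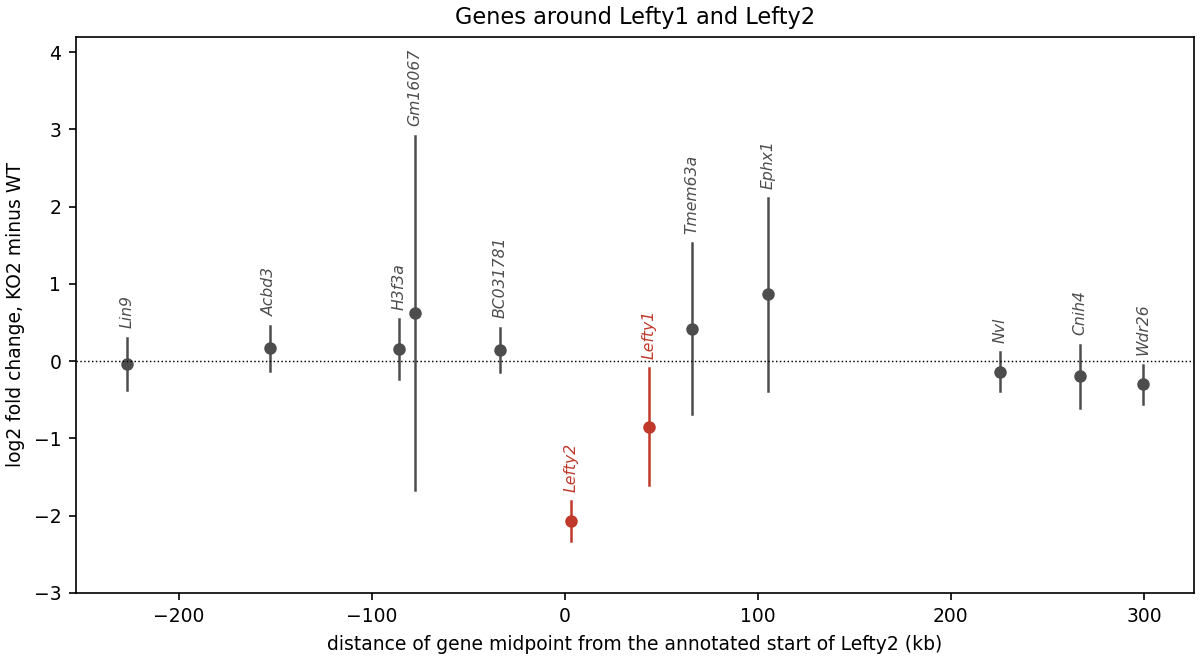
Log2 fold change (KO2 minus WT) with 95% interval of *Lefty1*, *Lefty2* and the tested genes within 250 kb that are named in the text, placed by the distance in kb of the gene's midpoint from the annotated start of *Lefty2*. *Lefty2* at -2.07 is the lowest point, *Lefty1* at -0.85 the next, and *BC031781* lies at 0.14.

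*Nodal* itself (ENSMUSG00000037171), the ligand that both LEFTY proteins antagonise, gave 101 and 208 counts in the WT samples against 283 and 240 in the KO2 samples. In CPM these were 37.6, 49.1, 35.9 and 32.1. The KO2 values were below the WT values, though the lower WT sample and the higher KO2 sample were close. The means were 43.4 ± 8.14 CPM for WT against 34.0 ± 2.69 CPM for KO2 (SD, n = 2 each). The log2 fold change of -0.37 (SE 0.20, 95% interval -0.78 to 0.04) did not pass the test, with an edgeR adjusted p of 0.3171.

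*Tdgf1* (ENSMUSG00000032494), the co-receptor, was the most abundant member. Its 2427 and 3664 counts for WT and 6824 and 7216 for KO2 came to 904, 866, 865 and 965 CPM. The groups overlapped. With a log2 fold change of 0.05 (SE 0.10, adjusted p = 0.8567), its 95% interval from -0.16 to 0.26 leaves out changes of the size seen for *Lefty2*.

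*Acvr2b* (ENSMUSG00000061393), a type II receptor for Activin and Nodal, had the largest fitted increase of the 9 genes. Its counts were 13 and 24 for WT against 89 and 75 for KO2, which amounted to 4.84, 5.67, 11.3 and 10.025 CPM. The KO2 samples lay above the WT samples without overlap. The means were 5.26 ± 0.58 CPM for WT against 10.7 ± 0.89 CPM for KO2 (SD, n = 2 each). The log2 fold change of 1.00 (SE 0.42, 95% interval 0.11 to 1.88) did not pass the test over all genes (unadjusted p = 0.02926, edgeR adjusted p = 0.1959). Its adjusted p lay between 0.133 and 0.495 under the alternatives.

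*Smad2* (ENSMUSG00000024563) and *Smad3* (ENSMUSG00000032402) code for the receptor-activated SMADs of the pathway. *Smad2* had 157, 237, 489 and 429 counts, WT before KO2, or 58.5, 56.0, 62.0 and 57.3 CPM, with overlapping groups and a log2 fold change of 0.06 (95% interval -0.27 to 0.40). *Smad3* had 85, 153, 390 and 338 counts in the same order, or 31.7, 36.2, 49.5 and 45.2 CPM. Its KO2 samples were both above its WT samples. The log2 fold change of *Smad3* was 0.47 (SE 0.19, 95% interval 0.08 to 0.86), with an unadjusted p of 0.02138 and an edgeR adjusted p of 0.1671, and so it was not called. These are RNA levels, and phosphorylation, through which SMAD2 and SMAD3 act, was not measured.

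*Smad7* (ENSMUSG00000025880) and *Skil* (ENSMUSG00000027660, also called SnoN) are the intracellular feedback genes among the members. SMAD7 blocks the type I receptors and SKIL represses SMAD complexes on DNA, and both genes are textbook targets of SMAD signalling. *Smad7* had 348 and 565 counts for WT against 1123 and 946 for KO2. The corresponding levels of 130, 134, 142 and 126 CPM overlapped, with a log2 fold change of 0.03 (SE 0.13, 95% interval -0.24 to 0.30, edgeR adjusted p = 0.9317). *Skil* had 257, 566, 909 and 996 counts in the same order, or 95.8, 134, 115 and 133 CPM. The WT samples of *Skil* spanned both KO2 samples, and its log2 fold change was 0.10 (SE 0.15, 95% interval -0.22 to 0.42, adjusted p = 0.7799). For both genes the interval lies above that of *Lefty2*, and above its estimate by over 1 log2 unit. The groups did not overlap for 5 of the 9 members, 3 with lower KO2 values (*Lefty2*, *Lefty1* and *Nodal*) and 2 with higher ones (*Acvr2b* and *Smad3*), against 48.8% of all tested genes.

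Levels of different genes were compared as CPM per kb of exon in the GENCODE annotation. The annotation behind the counts is not given, so the lengths counted may differ from these and the order is approximate. In WT the order of mean levels was *Tdgf1* (460 CPM per kb), *Lefty2* (126), *Smad7* (29.1), *Nodal* (20.7), *Smad2* (16.1), *Skil* (11.8), *Lefty1* (7.54), *Smad3* (6.12) and *Acvr2b* (2.999), and no neighbours in this order had overlapping ranges between the 2 samples. In KO2 the order began with *Tdgf1* (475 CPM per kb), and *Lefty2* (30.1) overlapped *Smad7* (29.7). *Smad2* (16.8) overlapped *Nodal* (16.2), and *Skil* (12.8), *Smad3* (8.54), *Acvr2b* (6.08) and *Lefty1* (4.19) followed without overlap. *Lefty2* thus stood apart from *Smad7* in WT and not in KO2, while *Lefty1* went from above *Smad3* and *Acvr2b* in WT to below both in KO2. Levels of *Tdgf1*, *Lefty1* and *Lefty2* are lowered by their repeated bases, by an amount that differs between these genes.

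The rest of the pathway was read from a list of 38 further genes, of which 37 were in the files. Of these, 26 passed the filter on low counts, 1 was called lower and 0 were called higher, against the 3.04% lower and 2.61% higher among all tested genes. The 1 call was lost without a filter on low counts and on leaving out WT replicate 1, WT replicate 2 or KO2 replicate 1, each of which gave 0 calls. The median log2 fold change of the 26 genes was -0.14, with 10 positive and 16 negative values. At an unadjusted p under 0.05 there were 5 genes, all with lower KO2 levels (among them *Fst*, *Acvr1b*, *Tgfbr1* and *Trim33*), where 19.4% of all tested genes were past that level in either direction. The groups did not overlap for 15 of the 26, 8 lower and 7 higher, beside the 48.8% of all tested genes.

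**Figure D4:**
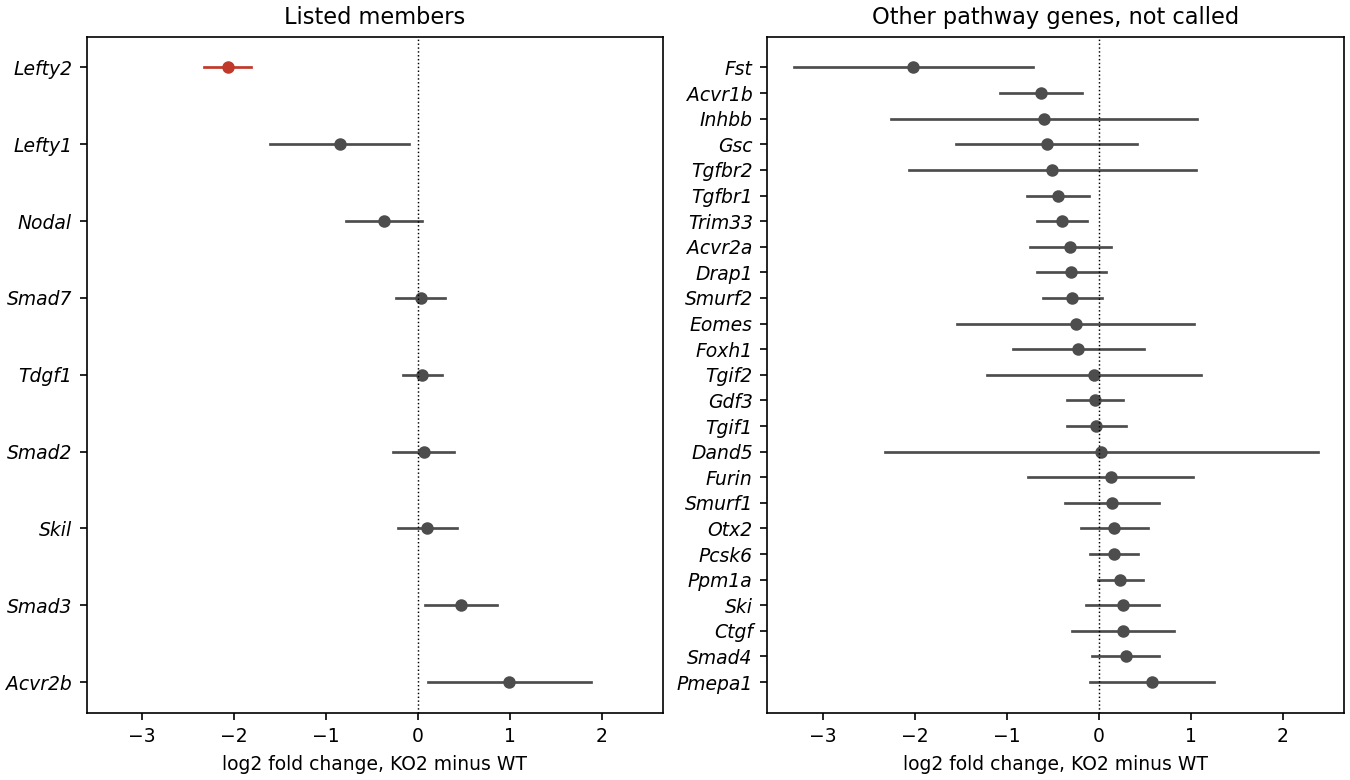
Log2 fold change (KO2 minus WT) with 95% interval of the 9 members and of the 25 tested genes of the further list that were not called, in order of the fold change, with called genes in red. *Lefty2* (-2.07) is the called gene shown, and *Fst* (-2.02) has a wide interval on at most 24 counts in any sample.

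Among the targets on the list, *Otx2* had a log2 fold change of 0.17, *Ctgf* of 0.26, *Gsc* of -0.56 and *Eomes* of -0.25, and none of these 4 was called. *Mixl1*, *Foxa2* and *T* were below the filter, and *T*, the gene for Brachyury, was at 0 in all 4 samples.

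Ligands and their processing enzymes gave 0 calls among 4 tested genes, beside 5.64% of all tested genes. *Gdf3*, a ligand related to Nodal, had 265, 360, 729 and 641 counts and a log2 fold change of -0.04 (edgeR adjusted p = 0.9176). *Inhba*, which codes for the subunit of Activin A, was at 0 counts in all 4 samples, and *Inhbb*, for the subunit of Activin B, had between 5 and 17 counts. The convertases *Pcsk6* and *Furin*, which cleave the Nodal precursor, had log2 fold changes of 0.17 and 0.13. Of the extracellular inhibitors, *Cer1* was at 0 in all 4 samples. *Fst*, which codes for the Activin-binding protein follistatin, had 13, 24, 10 and 10 counts and a log2 fold change of -2.02 with an SE of 0.62, which missed the threshold (edgeR adjusted p = 0.06514). *Fst* was called lower with at least 10 counts asked of every sample (adjusted p = 0.022) and with the replicate number as a block (0.0468). *Cfc1*, the other EGF-CFC co-receptor, had 0, 0, 0 and 5 counts and was below the filter.

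All 4 tested receptor genes of the list had negative log2 fold changes, with a median of -0.47, beside 6265 of all 12883 tested genes. Of the 4, 0 were called, beside 5.64% of all tested genes. So few genes do not set the receptors apart from the rest of the tested genes. *Acvr1b*, the type I receptor for Activin and Nodal, had 108, 146, 186 and 183 counts and a log2 fold change of -0.63 (SE 0.21, edgeR adjusted p = 0.09509). The fits gave -0.44 for *Tgfbr1* (adjusted p = 0.1298), -0.31 for *Acvr2a* and -0.50 for *Tgfbr2*, which had at most 23 counts. *Acvr2b*, the type II receptor among the members, had the opposite sign. *Acvr1c* was at 0 counts in every sample.

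Of the SMAD partners, *Smad4* had a log2 fold change of 0.30 (edgeR adjusted p = 0.3764) and *Foxh1*, the DNA-binding partner through which Nodal acts on *Lefty2*, of -0.22 (0.7871). *Trim33*, a chromatin reader that binds SMAD2 and SMAD3, had 607, 787, 1140 and 1246 counts and a log2 fold change of -0.40 (SE 0.13, edgeR adjusted p = 0.0796). It passed the threshold with the replicate number as a block (0.0431) and without KO2 replicate 2 (0.0445). The 8 intracellular inhibitors on the list (*Ski*, *Tgif1*, *Tgif2*, *Smurf1*, *Smurf2*, *Ppm1a*, *Drap1* and *Pmepa1*) split into 4 positive and 4 negative values, and ranged up to 0.58 for *Pmepa1*. They gave 0 calls, beside 5.64% of all tested genes.

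The genes whose pattern over the 4 samples was most like that of *Lefty2* were found by the Euclidean distance between log2 CPM values, each gene centred on its own mean. A prior count of 2 was added before the log, which shrinks the differences of genes with few counts. The nearest 5 of 12882 were *Cd59b* (distance 0.17), *St8sia6* (0.18), *Acss1* (0.19), *Acot3* (0.20) and *Aldh3a1* (0.21), and none of them was on the lists above. *St8sia6*, a sialyltransferase gene, had 51, 79, 38 and 28 counts, *Acss1*, an acetyl-CoA synthetase gene, had 110, 163, 89 and 71, and *Aldh3a1*, an aldehyde dehydrogenase gene, had 24, 34, 13 and 10. *Cd59b* and *Acot3* had at most 15 counts in any sample and near copies in the genome, so their values are uncertain. Neither was called, with fitted log2 fold changes of -2.52 for *Cd59b* (edgeR adjusted p = 0.06653) and -3.64 for *Acot3* (0.05519). *Lefty1* came at rank 482 (distance 1.28), *Nodal* at rank 2062 (1.77), and the other members between rank 5943 for *Smad7* and rank 11779 for *Acvr2b* (3.05). With 4 samples in 2 groups this measure mainly sorts genes by their fold change as shrunk by the prior count, which can differ from the fitted one.

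Promoter windows of 4 of the 9 members were examined, from 250 bases before to 50 bases after the annotated start. The windows were those of *Nodal*, *Tdgf1*, *Acvr2b* and *Smad3* (RefSeq, GRCm38.p6, a later build than that of the counts). They were searched on both strands for CAGAC, the SMAD-binding element, for its palindrome GTCTAGAC, for GGCGC, the GC-rich element that SMAD3 and SMAD4 also bind, for the FOXH1 element TGTGNATT, for the octamer ATGCAAAT of POU5F1 and for the telomere repeat unit TTAGGG. The motif CAGAC was found in *Tdgf1*, at -113 to -109 from the start, and in *Acvr2b*, as GTCTG on the other strand at -233 to -229, and 49.6% of 32851 promoters of this length hold it. GGCGC was found 3 times in *Acvr2b*, from -220, -202 and -140, and 36.9% of all promoters hold it. The other motifs, held by 0.213% (GTCTAGAC), 3.6% (TGTGNATT), 1.74% (ATGCAAAT) and 10.6% (TTAGGG) of all promoters, had 0 matches in these 4 windows. Windows of *Lefty1*, *Lefty2*, *Skil*, *Smad2* and *Smad7* are not reported, so the 0 matches do not extend to these genes. A match of this length is a description of the sequence and not a binding site. The windows of the pair with a match are shown, with the matches in capitals, since *Acvr2b* and *Tdgf1* are the receptor and co-receptor among the 9 members and stood at the lowest and highest WT level of the 9. They cover chr9:119401928-119402227 on the plus strand and chr9:110946109-110946408 on the minus strand.
Acvr2b: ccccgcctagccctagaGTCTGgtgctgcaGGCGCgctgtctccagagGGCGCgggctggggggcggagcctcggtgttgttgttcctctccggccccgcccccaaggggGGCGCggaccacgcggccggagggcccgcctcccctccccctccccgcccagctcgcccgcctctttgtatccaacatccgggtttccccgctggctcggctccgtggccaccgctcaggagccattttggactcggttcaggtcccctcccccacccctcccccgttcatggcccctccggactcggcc
Tdgf1: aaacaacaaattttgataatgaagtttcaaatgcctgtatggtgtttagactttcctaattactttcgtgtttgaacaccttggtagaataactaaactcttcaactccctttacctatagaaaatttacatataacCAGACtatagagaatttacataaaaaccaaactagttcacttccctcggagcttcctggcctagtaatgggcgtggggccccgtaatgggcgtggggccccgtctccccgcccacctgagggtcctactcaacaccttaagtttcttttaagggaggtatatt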

How the data were processed

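RNA was measured in 2 WT and 2 KO2 samples. The values deposited by the authors are raw counts per gene, made with HTSeq from reads aligned to mm9 by HISAT2; versions, annotation and counting options are not given in the sources used here. Gene rows held 41.2% to 47.1% of all counts of a sample. The rows for ambiguous reads, reads without a gene or with several places, and spike-ins stayed out of the library sizes. Genes were named from GENCODE on NCBIM37 (mm9).

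Counts were fitted in edgeR 4.0.16 (R 4.3.3; filterByExpr, minimum count 10, minimum total 15, TMM, glmQLFit with legacy=FALSE, glmQLFTest), and tested on simulated data. CPM used TMM-scaled library sizes. DESeq2 1.42.0 was an alternative. KO2 and WT replicates were separate samples (chi-square per gene between replicates 5.92 in WT and 21.3 in KO2). P-values measure the spread between samples of 1 line or clone each. The members and lists were chosen with earlier results of these data known. The naming rule took all members, list genes past the threshold, genes within 250 kb of *Lefty1* or *Lefty2*, and the 5 genes most like *Lefty2*; further list genes were named after their values were seen. A few genes that this rule or the lists hold are not reported here, though they are in the counts.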

Additional observations from a re-analysis of the deposited data

How the results depend on the processing

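*Lefty2* was the member called in all 12 settings, and no other member was called in any. Genes called numbered 727 in the analysis reported, 801 with RLE scaling, 656 with the older quasi-likelihood method, 163 with library sizes from ERCC spike-ins, 61 with no filter, 456 with DESeq2, and 270 to 691 with 1 sample left out (270 without WT replicate 1, 421 without WT replicate 2, 464 without KO2 replicate 1); the cause was not tested. Of the further pathway genes 1 was called, against 0 with no filter, 2 with at least 10 counts in every sample, 3 with the replicate block, and 0 to 2 with 1 sample left out. Replicate numbers only name the samples (correlation of same-numbered deviations -0.01), and the block gave 950 calls. Fold changes of 3 members that were not called changed sign with 1 sample left out: *Tdgf1* ranged from -0.0362 (without KO2 replicate 2) to 0.1286, *Smad7* from -0.0548 (without KO2 replicate 1) to 0.1084, and *Skil* from -0.107 (without WT replicate 1; -0.0159 without KO2 replicate 2) to 0.3748. The log2 ratio of *Lefty2* to *Lefty1* differed by -1.41 to -1.03 with 1 sample left out. No member changed sign under another scaling; spike-in scaling moved the median log2 fold change of all genes from 0.01 to 0.09. Depth limits *Lefty1*, *Acvr2b* and *Fst*, with at most 89 counts in any sample.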
